A study of Mus musculus with 16 samples.

Results

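The potassium channel genes described here are the 94 genes whose symbol starts with Kcn, out of 19439 genes listed in RNA-seq libraries of mouse ear skin. By the known structure of their products, 40 encode voltage-gated pore subunits, 15 inward rectifiers, 8 calcium-activated channels and their Slo relatives, 14 two-pore channels and 16 auxiliary subunits, and 1, Kcnrg, encodes a regulator that forms no pore. The family was selected on measured values, namely because Kcnc4 and Kcnj2 were lower with lysophosphatidylcholine (LPC) than with vehicle at day 4. The values of all members in that contrast are therefore given as a description. Calls and counts of calls stated for it are no test of the family.

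Potassium channels let potassium ions leave or enter cells down their electrochemical gradient and so set the membrane potential. Voltage-gated channels open on depolarisation and end action potentials in nerve and muscle, inward rectifiers hold the resting potential, calcium-activated channels couple the potential to calcium signals, and two-pore channels carry background leak currents. In skin they are known from sensory nerves, vessels, immune cells and keratinocytes, and in the ear also from the striated muscle below the dermis. Auxiliary subunits have no pore and change the gating or trafficking of the pores they join.

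The libraries came from ear lesions of BALB/c mice aged 8 weeks, and imiquimod (IMQ), a Toll-like receptor agonist used to model psoriasis in mice, was given to all 4 groups. Untreated skin was not analysed here. Mice received 10 µl of 10 mM LPC, a phospholipid with a single fatty acid chain, or 10 µl of saline as vehicle into the ear dermis once a day, on a schedule of 6 days that was not complete in mice killed at day 4. Vehicle and LPC mice were killed at day 4 or day 7, which gave 4 groups of 4 mice with a library from each mouse, named here by treatment and day.

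Library totals ran from 18704197 to 20131513 expected counts, so that a gene without counts could still be present at up to 0.145 to 0.181 CPM (the count scaled to a common library size), the level of 3 counts. None of 14 keratinocyte markers was at 0 in any library. Their score, the mean log2 CPM of the markers, was 9.27 to 9.81 with vehicle and 9.71 to 10.2 with LPC at day 4, and 9.90 to 10.3 with vehicle and 8.73 to 9.04 with LPC at day 7. The skeletal muscle score (26 markers, none at 0 in any library and no Kcn gene among them) ran from 6.29 to 9.88 with vehicle and 3.11 to 5.95 with LPC at day 4, and from 5.81 to 8.28 with vehicle and 3.25 to 8.65 with LPC at day 7. The summed FPKM (the count scaled to transcript length and library size) of these markers ran from 3106 to 27645, 359 to 2285, 1962 to 7875 and 387 to 12308 in the same groups. Within LPC day 7, mice 2 and 4 had scores of 8.65 and 8.58 and stood apart from mice 1 and 3, at 4.64 and 3.25. In such bulk libraries fewer cells of a type and less RNA per cell cannot be told apart.

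Most Kcn genes were low in these lesions. In FPKM, a scale that can be compared between genes, 31 of the 94 reached a mean of 1 over the 16 libraries, and 16 never reached 0.1 in any library. Kcnh6, a voltage-gated channel of the ERG group, had the highest mean at 17.2 FPKM (range 8.63 to 31.3). Next were Kcnk7, a two-pore relative not known to carry current by itself, at 12.2 FPKM and Kcnc4, a fast Kv3 channel, at 7.58 FPKM. These neighbours in the order overlapped in their ranges, which were 4.97 to 18.2 FPKM for Kcnk7 and 1.70 to 18.3 FPKM for Kcnc4. The leading members of the other classes were the calcium-activated Kcnn4 at 6.08 FPKM, the inward rectifier Kcnj11 at 5.71 FPKM, which forms the pore of ATP-sensitive channels, and the auxiliary Kcne4 at 4.80 FPKM.

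Further two-pore members at these levels were Kcnk6 at 7.02 FPKM (3.76 to 10.9) and Kcnk1 at 4.25 FPKM, both of the TWIK group. Among the inward rectifiers Kcnj15 had a mean of 3.88 FPKM, Kcnj8 3.22, Kcnj2 2.61 and Kcnj12 2.39 FPKM. The BK pore gene Kcnma1 had 2.04 FPKM and the small-conductance channel gene Kcnn3 0.797 FPKM. Kcna3, the Kv1 channel of T cells, was close to absent, with 30 counts in all libraries together and a highest level of 0.311 CPM in LPC day 7 mouse 4. Enough counts for testing were found for 69 members: 30 of 40 voltage-gated, 10 of 15 inward rectifier, 8 of 8 calcium-activated, 8 of 14 two-pore and 12 of 16 auxiliary genes, and Kcnrg. Of these 69, 45 were above 0.517 CPM, the level of the count filter, in all 16 libraries, 20 in 8 to 15 libraries and 4 in 4 to 7 libraries.

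**Figure D1:**
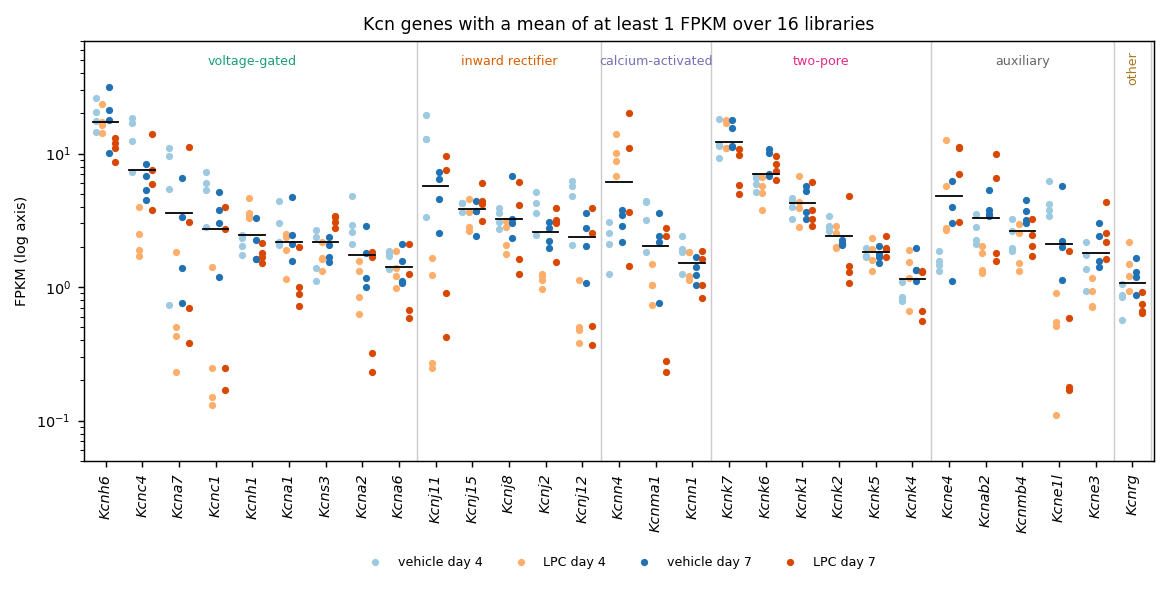
Level of 29 Kcn genes with a mean of at least 1 FPKM (log axis), by class, with 1 point per library coloured by group and a bar at the mean of 16 libraries. Kcnh6 and Kcnk7 are the highest, and all LPC day 4 points of Kcnc1, Kcnj11, Kcnj12 and Kcne1l lie below all their vehicle day 4 points.

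The reads of 42 members can overlap with another annotated gene, among them protein-coding ones for Kcnab2 (Nphp4), Kcnk7 (Ehbp1l1), Kcnrg (Trim13), Kcnh3 (Mcrs1) and Kcnmb1 (Kcnip1) and the antisense RNA Kcnq1ot1 for Kcnq1, and whether reads were counted by strand is not known here. Partners that are not protein-coding also overlap Kcnh6, Kcne3, Kcne4 and Kcnma1, among others. Reads of such partners cannot be told apart.

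Summed over each class, the voltage-gated genes gave the most FPKM. The voltage-gated sum was 71.6 ± 13.1 FPKM with vehicle and 41.1 ± 3.13 with LPC at day 4 (mean ± SD, n = 4), and 54.9 ± 14.9 with vehicle and 45.0 ± 15.7 with LPC at day 7. The inward rectifier sum was 30.1 ± 9.82, 10.8 ± 1.03, 19.4 ± 4.35 and 19.3 ± 8.42 FPKM in the same order. The two-pore sum stayed within 27.0 and 33.6 FPKM as group means. The calcium-activated sum was 9.98 ± 1.66 and 8.68 ± 1.42 FPKM in the vehicle groups and 13.6 ± 3.11 and 13.1 ± 6.35 FPKM in the LPC groups at day 4 and day 7. Over the 16 libraries Kcnn4 had the highest mean of that class, but in vehicle day 4 Kcnma1 was above it, at 3.44 against 2.25 FPKM.

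At day 4 Kcnc4 and Kcnj2 were lower with LPC. Kcnc4 (Entrez 99738, chromosome 3, 107438298 to 107460287 on GRCm38) encodes Kv3.4, known from fast skeletal muscle fibres and neurons. Its level was 41.5, 55.1, 26.3 and 57.3 CPM in vehicle mice 1 to 4 and 14.6, 6.35, 7.74 and 8.55 CPM in LPC mice 1 to 4. Every LPC mouse was below every vehicle mouse. The log2 fold change fitted by edgeR, with its standard error, was -2.27 ± 0.35. Kcnj2 (Entrez 16518, chromosome 11, 111066164 to 111076825) encodes Kir2.1, the inward rectifier that holds the resting potential of muscle and vessel cells. Its level was 24.4, 19.7, 12.4 and 26.4 CPM with vehicle and 6.40, 5.03, 6.91 and 6.61 CPM with LPC, again without overlap, and the log2 fold change was -1.73 ± 0.27.

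Kcnc4 and Kcnj2 were the 2 of 69 tested members that passed an adjusted p of 0.05 (edgeR quasi-likelihood test, Benjamini-Hochberg over all 15782 genes tested), where 0.139% of all genes did, 0.095% upward and 0.0444% downward. Since they led to the choice of the family, nothing is read from that count. The median log2 fold change of the 69 was -0.30, against 0.00 over all genes, with 47 negative and 22 positive values. Their promoter sequences, from the RefSeq table for GRCm38.p6, are shown with those of Kcnj12 and Kcna7. The levels of Kcnj12 and Kcna7 followed the skeletal muscle score within groups, as given below, and for Kcnj2 this relation was not called. Each is the 250 bases before a listed transcript start, with the capitals marking CANNTG, the E-box bound by basic helix-loop-helix factors such as the myogenic regulators. The pattern CANNTG, though not each marked match, reads the same on both strands. The positions are chr3:107458899-107459148 (minus strand) for Kcnc4, chr11:111065914-111066163 (plus strand) for Kcnj2, chr11:61065554-61065803 (plus strand) for Kcnj12 and chr7:45405710-45405959 (plus strand) for Kcna7. The windows of Kcnc4 and Kcnj12 lie inside the annotated gene spans.
Kcnc4: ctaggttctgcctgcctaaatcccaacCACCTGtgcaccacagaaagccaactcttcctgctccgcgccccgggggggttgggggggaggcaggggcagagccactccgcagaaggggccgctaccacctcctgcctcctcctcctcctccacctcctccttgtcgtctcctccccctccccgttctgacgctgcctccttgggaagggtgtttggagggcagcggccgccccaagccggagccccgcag
Kcnj2: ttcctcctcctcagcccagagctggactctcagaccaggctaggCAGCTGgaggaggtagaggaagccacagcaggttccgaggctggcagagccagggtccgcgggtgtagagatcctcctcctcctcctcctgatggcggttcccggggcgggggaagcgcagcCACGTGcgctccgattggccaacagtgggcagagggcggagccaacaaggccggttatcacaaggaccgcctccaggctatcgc
Kcnj12: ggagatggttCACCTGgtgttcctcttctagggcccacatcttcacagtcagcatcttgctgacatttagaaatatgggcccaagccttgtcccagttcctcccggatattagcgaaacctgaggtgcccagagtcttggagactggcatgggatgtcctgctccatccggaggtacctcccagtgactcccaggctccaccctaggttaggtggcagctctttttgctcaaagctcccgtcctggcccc
Kcna7: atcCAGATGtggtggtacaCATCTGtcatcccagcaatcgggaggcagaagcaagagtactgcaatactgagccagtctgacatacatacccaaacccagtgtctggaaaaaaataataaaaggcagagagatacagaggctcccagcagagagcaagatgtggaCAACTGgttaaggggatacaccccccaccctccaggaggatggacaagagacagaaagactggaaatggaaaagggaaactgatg
These 4 windows held 1, 2, 1 and 3 matches in that order, and 66.2% of 32851 promoter windows of that length hold at least 1. Over the 97 windows of the 72 Kcn genes in the table the share was 67.0%. The form CAGCTG, contained in CANNTG, was present in the Kcnj2 window, in 13% of all windows and in 22.7% of Kcn windows. The MEF2 site, bound by another family of muscle factors, was in 2.92% of all windows and in 2.06% of Kcn windows. These are descriptions of letters, not of sites in use.

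Other members with large differences at day 4 also carried low values in LPC mice, and these too are a description. Kcnj11 was 59.1, 39.7, 9.42 and 37.4 CPM in vehicle mice and 5.18, 0.684, 0.831 and 3.31 CPM in LPC mice. Its log2 difference of -3.86 ± 0.93 was the most negative of the 69 tested. Kcnc1, a Kv3 relative of Kcnc4, gave -3.46 ± 0.99, Kcna7, a Kv1 channel known from striated muscle, -3.14 ± 1.09 and Kcnj12, a close relative of Kcnj2, -2.87 ± 0.68. The auxiliary Kcne1l, a member of the MinK family, went the same way, at 4.89 to 9.21 CPM with vehicle and 0.160 to 1.27 CPM with LPC.

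The opposite sign was carried by Kcnn4 and Kcne4. Kcnn4 encodes the intermediate-conductance calcium-activated channel of red cells, lymphocytes and epithelia. It was 5.18, 4.10, 5.46 and 2.31 CPM with vehicle and 20.3, 12.6, 17.6 and 26.9 CPM with LPC, a log2 difference of 2.18 ± 0.61. Kcne4, a subunit that inhibits several Kv1 channels, was 3.39 to 4.20 CPM with vehicle and 6.45 to 31.2 CPM with LPC, a difference of 1.97 ± 0.57. Both genes were higher in every LPC mouse than in every vehicle mouse. Kcnh1, an EAG channel, was higher too, at 11.7 to 17.4 CPM against 23.4 to 33.7 CPM. The neutrophil score (12 markers, none at 0) was 2.12 to 5.24 with vehicle and 4.08 to 6.23 with LPC, and its part in these values was not tested.

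All 26 skeletal muscle markers had negative values with LPC at day 4, with a median log2 fold change of -4.08, and none was called. With the muscle score as a covariate, the day 4 difference became -1.30 for Kcnc4 and -1.11 for Kcnj2 and neither passed the threshold. It changed sign for several genes, among them Kcna7 (0.83), Kcnma1 (0.86) and Kcnq5 (0.53). The muscle scores of the groups did not overlap at day 4, at 6.29 to 9.88 with vehicle and 3.11 to 5.95 with LPC. These adjusted values therefore lean on slopes from all 4 groups, and LPC and the muscle score cannot be told apart in them. Leaving out vehicle mouse 1, 2 or 4 or LPC mouse 1, 3 or 4 of day 4 also ended both calls, with log2 fold changes of -2.58 to -2.13 for Kcnc4 and -1.93 to -1.59 for Kcnj2 over the 16 libraries left out in turn.

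**Figure D2:**
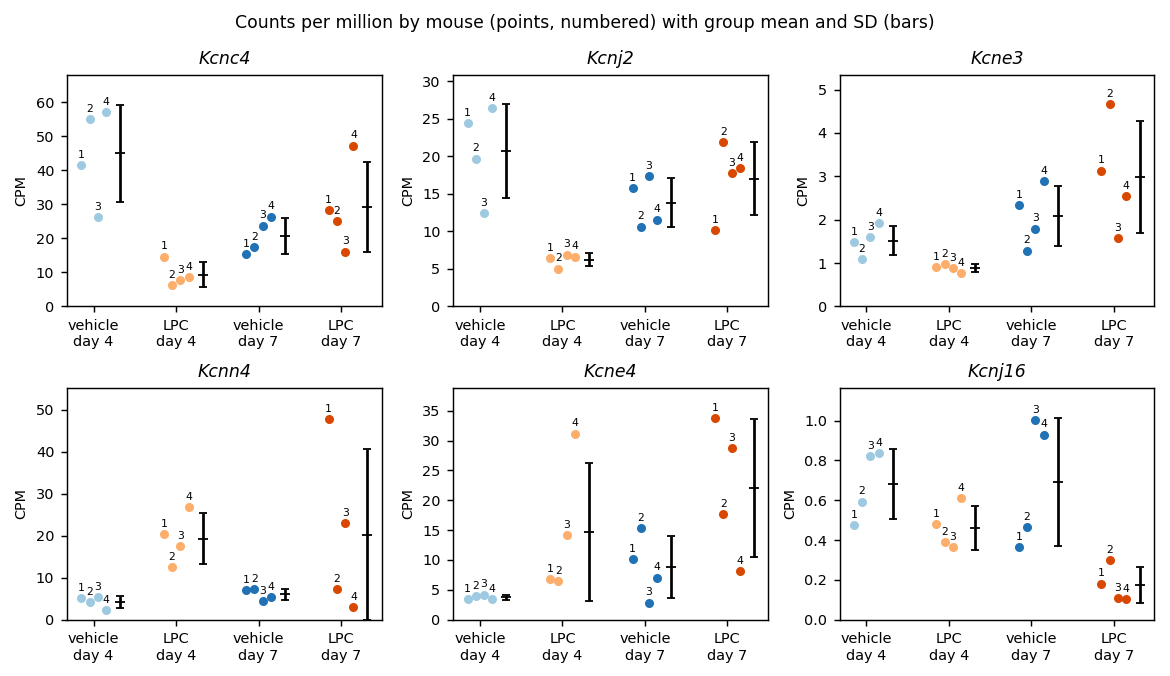
Level in CPM (linear axis) of Kcnc4, Kcnj2, Kcne3, Kcnn4, Kcne4 and Kcnj16 in each of 16 mice, numbered within its group, with the group mean and SD as bars. Kcnc4 and Kcnj2 are lowest in the LPC day 4 mice, and Kcnn4 in LPC day 7 spreads from 3.01 to 47.9 CPM.

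The group means of the day 7 contrast share no library with the one that led to the choice of the family. The spread behind its standard errors and p was estimated per gene over all 16 libraries, those of day 4 among them. At day 7 LPC and vehicle differed in 1 of 69 members, Kcnj16, or 1.45% of them. Of all genes 3.83% passed, 2.38% upward and 1.44% downward. Kcnj16 (Entrez 16517, chromosome 11, 110968033 to 111027968) encodes Kir5.1, an inward rectifier that is silent alone and makes pores sensitive to pH with Kir4 partners. It was 0.365, 0.464, 1.00 and 0.929 CPM in vehicle mice and 0.181, 0.301, 0.109 and 0.104 CPM in LPC mice, without overlap. It fell by 1.95 ± 0.44 on the log2 scale (adjusted p = 0.029, edgeR). The expected counts behind these values were 7.44 to 19.3 with vehicle and 2.27 to 5.83 with LPC, near the floor of 3, so the size of the fall is poorly determined. Without vehicle day 7 mouse 3 or 4, or LPC day 7 mouse 1, 3 or 4, its adjusted p exceeded the threshold, with a range of 0.023 to 0.097 over the 16 libraries left out, and limma on log2(FPKM + 1) did not call it.

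Kcnc4 and Kcnj2 did not pass at day 7. Kcnc4 was 15.3, 17.4, 23.8 and 26.4 CPM with vehicle and 28.3, 25.2, 16.1 and 47.3 CPM with LPC, and the groups overlapped. Its log2 difference was 0.50 ± 0.34 (adjusted p = 0.460). Kcnj2 was 15.7, 10.6, 17.3 and 11.5 CPM with vehicle and 10.2, 21.8, 17.7 and 18.4 CPM with LPC, a difference of 0.30 ± 0.26 (adjusted p = 0.584). The median over the 69 members was -0.01, against 0.02 over all genes, with 34 positive and 35 negative values.

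Among the members of smallest p after Kcnj16 were Kcns3, Kcna1 and Kcnn4. Kcns3, a silent Kv subunit that modifies Kv2 channels, was 3.19 to 4.55 CPM with vehicle and 6.47 to 7.42 CPM with LPC, a difference of 0.81 ± 0.26 (adjusted p = 0.096). Kcna1, a Kv1 channel of myelinated axons, was 14.0 to 40.5 CPM with vehicle and 7.89 to 19.1 CPM with LPC, a difference of -1.12 ± 0.37 (adjusted p = 0.105). The groups of Kcns3 did not overlap and those of Kcna1 did. Kcnn4 was 6.98, 7.32, 4.38 and 5.38 CPM with vehicle and 47.9, 7.23, 23.0 and 3.01 CPM with LPC, a difference of 1.75 ± 0.60 (adjusted p = 0.117). It was high in mice 1 and 3, whose muscle scores were low and neutrophil scores high (7.92 and 7.84), and within the vehicle range or below it in mice 2 and 4, with neutrophil scores of 6.71 and 6.23. The neutrophil score was 3.15 to 5.76 with vehicle, all 12 markers had positive values with LPC at day 7, of which 4 were called, and the part of these cells in the level of Kcnn4 was not tested. Of 14 keratinocyte markers 6 were called, all lower. Over all genes 2.38% were called higher and 1.44% lower.

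Without mice 2 and 4 of LPC day 7, an alternative chosen after the data were seen, 19 Kcn genes passed at day 7, 4 higher and 15 lower. The same fit called 3376 genes in all after its own count filter. No share over all genes is given for it, so nothing is read from the count of 19. Kcnn4 then gave 2.59 and Kcne4 1.85, but the left-out mice are also those with the lowest values of both genes in their group, so these values carry no test. The genes Kcnma1 (-2.93), Kcnc1 (-3.83), Kcnj11 (-2.71) and Kcnj12 (-2.19) were among the lower ones. Kcnc4 and Kcnj2 were not among the 19. The LPC mice that remained had muscle scores of 4.64 and 3.25, below all 4 vehicle mice, so the muscle-linked genes among the 19 cannot be told apart from the choice of mice. Kcnk10, which was among the 4 higher genes, had too few counts for testing over all libraries. It passed the filter of this fit only through LPC day 7 mice 1 and 3, at 0.903 and 1.36 CPM. With vehicle it was 0.103 to 0.365 CPM at day 7, and its call carries no test.

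**Figure D3:**
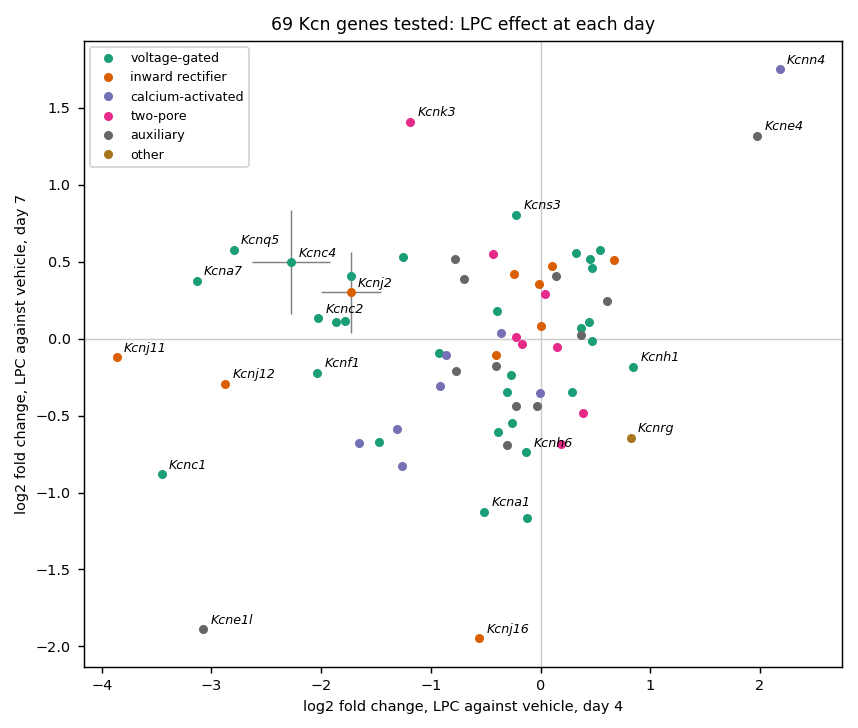
Log2 fold change of LPC against vehicle at day 4 (x axis) and at day 7 (y axis) for the 69 Kcn genes tested, coloured by class, with standard errors as bars for Kcnc4 and Kcnj2. Kcnj11, Kcnc1, Kcna7 and Kcnj12 lie far to the left near 0 or below on the y axis, and Kcnn4 and Kcne4 lie to the upper right.

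Between day 4 and day 7 no member of the 69 passed with vehicle by edgeR's quasi-likelihood test, and 0% of all genes did. At an unadjusted p under 0.05, 5 members or 7.25% did, against 13% of all genes. DESeq2 and limma called no member either, but how many of all genes they called is not given, so nothing is read from this. Kcnk6, a two-pore channel also known as TWIK2, was 22.0 to 25.5 CPM at day 4 and 26.2 to 46.1 CPM at day 7, a difference of 0.57 ± 0.19 (adjusted p = 0.257). Kcnmb1, the beta subunit of BK channels in smooth muscle, gave 1.20 ± 0.41 (adjusted p = 0.261) at levels below 1 CPM. For Kcnc4 and Kcnj2, whose vehicle day 4 libraries entered their selection, the values were -1.12 ± 0.34 and -0.58 ± 0.26 and carry no test. All 26 muscle markers had negative values in this contrast, with a median of -1.56.

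With LPC, 9 of 69 members differed between the days, 7 upward and 2 downward, or 13%, where 11% of all genes passed, 6.87% upward and 4.13% downward. The share is near that of all genes. Kcnc4 and Kcnj2 were 2 of the 9, at 1.65 ± 0.35 and 1.45 ± 0.27, but the LPC day 4 libraries that chose them are the reference here, so these values are a description. The other 7 were not used in that choice and are given with their tests.

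Kcne3, a MinK family subunit that keeps KCNQ1 channels open in epithelia, rose most clearly. It was 0.907, 0.977, 0.883 and 0.763 CPM at day 4 and 3.13, 4.67, 1.58 and 2.54 CPM at day 7, without overlap, and the log2 change was 1.75 ± 0.34 (adjusted p = 0.0095, edgeR). It kept its call in all 26 alternatives. Kcns3 rose by 1.05 ± 0.26 (adjusted p = 0.024), from 2.65 to 3.91 CPM up to 6.47 to 7.42 CPM, again without overlap. Kcnk6 rose by 0.70 ± 0.19 (adjusted p = 0.035), from 15.3 to 25.8 CPM up to 31.4 to 40.0 CPM.

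Kcnab2, a Kv beta subunit that binds Kv1 channels, rose by 1.70 ± 0.44 (adjusted p = 0.028). Its day 7 values were uneven, at 7.95, 35.6, 6.09 and 24.6 CPM in mice 1 to 4, where mouse 3 lay inside the day 4 range of 4.25 to 7.28 CPM, mouse 1 just above it and mice 2 and 4 far above it. Kcnc2, a Kv3 channel known from neurons, rose by 2.15 ± 0.60 (adjusted p = 0.036) at 0.107 to 0.208 CPM on day 4 and 0.181 to 1.46 CPM on day 7. The groups overlapped, and its day 4 counts of 2 to 4 lie at the floor of 3, so the size of the rise is poorly determined. Kcnh1 fell by 0.96 ± 0.23 (adjusted p = 0.021), from 23.4 to 33.7 CPM down to 12.6 to 16.1 CPM. Kcnab3, another Kv beta subunit, fell by 1.00 ± 0.30 (adjusted p = 0.045), from 1.55 to 1.76 CPM down to 0.542 to 1.25 CPM.

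All 26 muscle markers had positive values in this contrast, with a median of 2.73 and none called. Other marker lists held called genes. Higher were 6 of 12 endothelial, 7 of 17 macrophage, 3 of 12 neutrophil and 1 of 10 T cell markers. Lower were 4 of 8 melanocyte, 3 of 14 keratinocyte and 1 of 13 Schwann cell and nerve markers. Over all genes 6.87% were called higher and 4.13% lower, and lists with 1 called gene are not read against these shares. The adipocyte list (16 markers) and the smooth muscle and pericyte list (12 markers) each held 1 called gene that was higher and 1 that was lower. Their part in the changes of the channel genes was not tested. With the muscle score as a covariate 4 members passed, Kcne3, Kcnc4 and Kcnj2 with positive values and Kcnma1 with a negative one (-1.29). The share over all genes in that fit is not given here, so nothing is read from the count. Leaving out 1 library at a time gave 3 to 16 members. Without LPC day 7 mouse 2 or 4, Kcnab2, Kcnc2 and Kcnk6 lost their calls, and LPC day 4 mice 1 and 3 were likewise needed for Kcnab2, Kcnc2, Kcnk6 and Kcns3.

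The test of whether LPC acted differently at the 2 days passed for no member, and for 0% of all genes by edgeR. At an unadjusted p under 0.05 there were 18 members, or 26.1%, against 16.9% of all genes. DESeq2 called 3 members, where it called 582 genes in all, and 2 of the 3 are Kcnc4 and Kcnj2, so nothing is read from these counts. The third was Kcnj11. Kcnc4 gave 2.77 ± 0.49 and Kcnj2 2.03 ± 0.38, which hold the day 4 contrast within them and are a description. Among the others Kcnrg, whose human form blocks the assembly of Kv channels, gave -1.47 ± 0.42 (adjusted p = 0.170) and Kcnh1 -1.02 ± 0.32 (adjusted p = 0.181).

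Within groups, the level of many channel genes followed the muscle score of the library. Slopes were fitted in the same model with group means, so that differences between treatments and days do not enter them. Of 69 members, 23 had a slope past the threshold, 19 positive and 4 negative, or 33.3%, where 17.2% of all genes passed, 12.3% with a positive and 4.91% with a negative slope. Kcnj11 had a slope of 0.78 ± 0.05 log2 units per unit of score (adjusted p = 1.5e-07, edgeR), Kcnj12 one of 0.56 ± 0.05 and Kcnma1, the pore of BK channels, one of 0.56 ± 0.06. The Kv genes Kcna7 (0.86 ± 0.14), Kcnc1 (0.77 ± 0.09) and Kcnq5 (0.73 ± 0.11) were also called. These 6 genes kept their calls in all 21 alternatives.

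By class, the muscle slope was called for 12 of 30 voltage-gated, 3 of 10 inward rectifier, 3 of 8 calcium-activated, 2 of 8 two-pore and 3 of 12 auxiliary genes. The negative slopes included those of Kcnk7 (-0.20 ± 0.04), the BK beta subunit Kcnmb4 (-0.20 ± 0.05) and the silent subunit Kcng3 (-0.25 ± 0.07). The genes that led to the choice of the family had small slopes. Kcnc4 had a slope of 0.22 ± 0.05 and Kcnj2 one of 0.13 ± 0.05. Kcnc4 is counted among the called members. It lost that call without LPC day 7 mouse 3 or 4 and with the nerve score in the fit (0.20). Without the whole LPC day 7 group (0.29) it kept the call. The day 4 libraries that chose both genes are part of this fit, and that choice favoured a small spread within groups. The slopes of Kcnc4 and Kcnj2 are therefore a description. Whether these slopes differ from those of Kcnj11 was not tested.

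**Figure D4:**
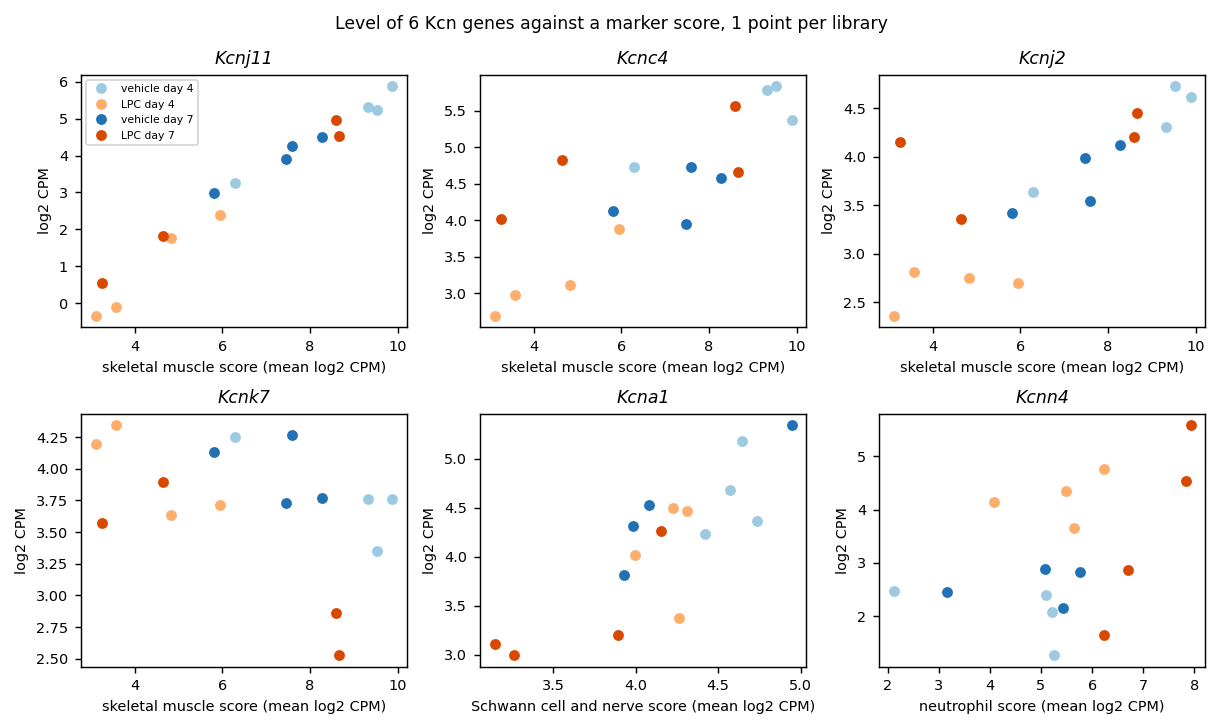
Log2 CPM of 6 Kcn genes against a marker score (mean log2 CPM), with 1 point per library coloured by group. Kcnj11 rises with the muscle score close to a single line over all 16 libraries, Kcnj2 in LPC day 4 stays low over scores of 3.11 to 5.95, and Kcnk7 is lowest in the 2 LPC day 7 libraries with high muscle scores.

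The slopes on the adipocyte and macrophage scores cannot be told apart from those on the muscle score. The adipocyte score gave 23 called members, 18 positive and 5 negative (18.6% of all genes, 12.2% and 6.39% by sign), and the macrophage score 22, 18 positive and 4 negative (19.6% of all genes, 13.3% and 6.33% by sign). With the muscle score in the same fit no member was called for either. The 18 members with positive adipocyte slopes shared 15 with the 19 of the muscle score. The negative adipocyte slopes included Kcnn4 (-0.62 ± 0.12, adjusted p = 0.0036) and Kcne4 (-0.46 ± 0.13, adjusted p = 0.025), and for Kcnn4 the slope lost its call without LPC day 7 mouse 4.

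The Schwann cell and nerve score gave 11 called members, 9 positive and 2 negative, or 15.9%, where 14% of all genes passed, 7.59% with a positive and 6.46% with a negative slope. It ran from 3.15 to 4.94 over the libraries and is the mean of the 13 of its 16 markers with enough counts for testing. The neurofilament genes Nefl, Nefm and Nefh, each at 0 in at least 1 library, are not among the 13. Of the 13, 6 had a called positive slope on the score and 1 a called negative one. The called genes included the Kv1 members Kcna1 (1.11 ± 0.30), Kcna2 (1.84 ± 0.49), Kcna5 (1.53 ± 0.44) and Kcna6 (1.01 ± 0.29), of which Kcna1, Kcna2 and Kcna6 are known from axons. The beta subunit Kcnab1 (1.86 ± 0.32, adjusted p = 0.0091), the Kv7 channel Kcnq1 (1.82 ± 0.34, with reads of Kcnq1ot1 not separable) and Kcnj8, the vascular ATP-sensitive channel (1.53 ± 0.29), had the smallest p. With the muscle score beside it 6 members were called, namely Kcna1, Kcnab1, Kcnh3, Kcnj8 and Kcnq1 with positive and Kcnj15 with negative slopes. Without the 4 LPC day 7 libraries no member was called for the nerve or macrophage score. Kcna7 and Kcnj12 were then called for the adipocyte score and 8 members for the muscle score. No share over all genes is given for the fits with a second score or without LPC day 7, so nothing is read from their counts. The hair follicle score gave no called member, where 1.08% of all genes passed, 1.05% with a positive and 0.0253% with a negative slope; 2 members, Kcnh3 and Kcns1, had an unadjusted p under 0.05 (9.88% of all genes), and no other tool was run on slopes.

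**Figure D5:**
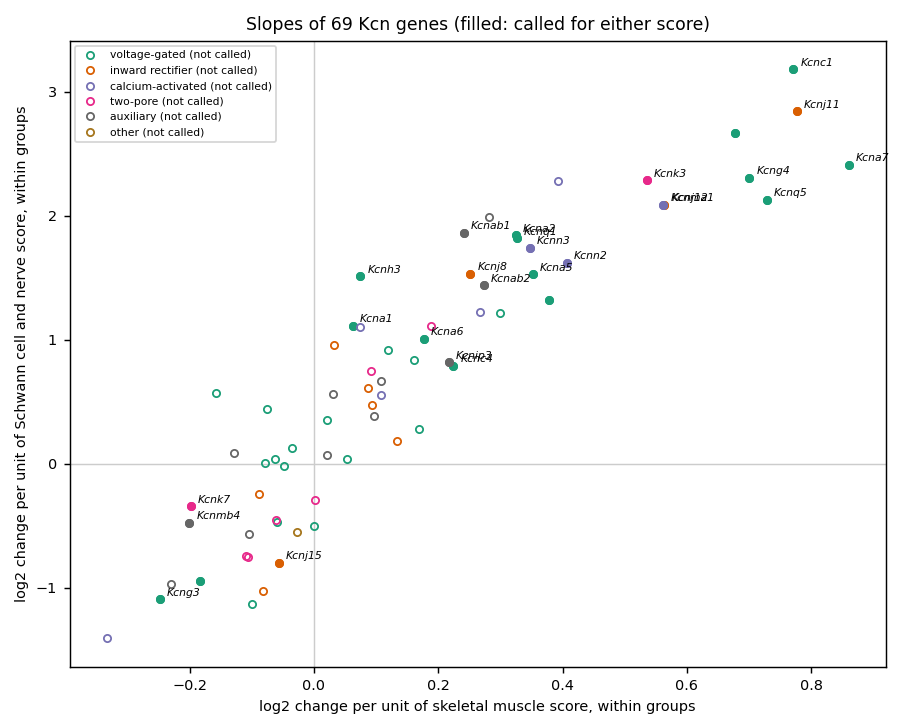
Slope of each of 69 Kcn genes on the skeletal muscle score (x axis) and on the Schwann cell and nerve score (y axis), in log2 units per unit of score within groups, with points filled where either slope was called. Kcnj11, Kcnc1 and Kcna7 have steep muscle slopes and nerve slopes of 2.41 to 3.18 that were not called, while Kcna1 and Kcnh3 have a nerve slope and almost none on muscle.

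Of 35 transporters, pumps and partners of potassium channels 29 were tested. At day 7, LPC against vehicle called 2 of them, both higher, or 6.9% against 3.83% of all genes, among them Fxyd5, a regulator of the sodium pump, which rose by 0.90 ± 0.19 (adjusted p = 0.023). Between the days with LPC 4 were called, 3 higher and 1 lower, or 13.8% against 11% of all genes. Fxyd5 rose by 0.79 ± 0.19 and the trimeric cation channel gene Tmem38b by 0.81 ± 0.24, while Fxyd3 fell by 0.73 ± 0.20 (adjusted p = 0.037). On the muscle score 11 of the 29 had a called slope, 10 positive and 1 negative, or 37.9% against 17.2% of all genes. Of 22 genes of muscle excitability outside the Kcn family, such as the sodium channel Scn4a and the calcium release channel Ryr1, none was called in any of the 5 contrasts, with a median of -2.62 at day 4 and 0.16 at day 7, and 18 had a called positive slope on the muscle score.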

How the data were processed

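RNA of ear lesions was extracted with TRIpure and sequenced on a BGISEQ-500, per the labels' protocols. Reads were aligned with Bowtie2 to GRCm38 and quantified with RSEM, per the labels' protocols, with no versions stated. The authors deposited an expected count and an FPKM value per gene and library. FPKM served to compare levels between genes, and expected counts, rounded to whole numbers, were tested with edgeR 4.0.16 (R 4.3.3, quasi-likelihood, TMM scaling, filterByExpr, 1 mean per group over 16 libraries, with 12 residual degrees of freedom). Adjusted p-values are Benjamini-Hochberg over 15782 genes, called below 0.05, and 3657 genes were left out by the filter. Library sizes for CPM were scaled by TMM, and a prior count of 2 was added for log2 CPM. Scores are the mean log2 CPM of a marker list, and slopes added 1 score to the group means. The fits were checked on simulated data with known changes.

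Groups follow the sample titles and the series' design, which give days 4 and 7, while the deposited files are named with 3 and 6. Each library is 1 of 4 mice of its group. The members and all lists were chosen with earlier results of these data known, and the classes follow known channel structure. Named genes are Kcnc4 and Kcnj2, the called members of each comparison (the 12 of smallest p where there are more, and up to 4 of smallest p where there are fewer), the 4 highest in FPKM per class and a panel of 17 genes. Kcng3 and Kcnk10 fall outside this rule and were named after their values were seen. A few genes stay in all fits and counts but are not reported here singly. Promoter sequences come from the RefSeq table of GRCm38.p6.

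Alternatives were median-of-ratios size factors, no count filter, a filter at 1 CPM in 8 or more libraries, DESeq2 1.42.0 and limma 3.58.1 on log2(FPKM + 0.1) and log2(FPKM + 1), a replicate block, the muscle score as a covariate, the 8 libraries compared alone, and each library left out. Those without LPC day 7 mice 2 and 4, without the LPC day 7 group, and with a second score were chosen after seeing the data. Floors cover counting error only.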

Additional observations from a re-analysis of the deposited data

Results flagged for a closer look

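In 10 of 176 sets of 4 mice, 1 library stood far from the other 3 in the level of a Kcn gene. Chance gives about 1 in 20 such sets.

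Mouse 4 of LPC day 7 was high for 3 genes. Kcna1 was at 19.1 CPM there against 7.89 to 9.08 in the other mice, Kcnk2, a mechanosensitive two-pore channel, at 19.2 against 5.12 to 6.25 CPM, and Kcns3 at 7.42 against 6.47 to 6.62 CPM. For Kcns3 the gap is small in size.

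Mouse 2 of vehicle day 7 was low for Kcnc2 and for Kcng4, a silent subunit, both at 0.206 CPM, against 0.791 to 0.886 and 0.573 to 0.685 CPM. Kcnq1 was high in vehicle day 7 mouse 4, at 2.35 against 0.834 to 0.949 CPM.

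In vehicle day 4, Kcnab1 was low in mouse 2 at 0.692 against 1.53 to 1.77 CPM. Kcne1l was high in mouse 1 at 9.21 against 4.89 to 5.41 CPM.

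In LPC day 4, Kcna5 was low in mouse 2 at 0.342 against 0.883 to 1.02 CPM. Kcna3 was at 0.0534 CPM in mouse 1 and at 0 in the others, all below the level of 3 counts.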

How the results depend on the processing

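Of the alternative values of single genes, 3832 kept their direction and side of the threshold, 438 lost and 140 gained a call, and 27 changed sign. Leaving out 1 library at a time gave 0 to 7 called Kcn genes for LPC at day 4 (2 with all libraries), 0 to 2 for LPC at day 7 (1), 0 to 0 between the days with vehicle (0), 3 to 16 between the days with LPC (9), 0 to 2 for the difference between days (0), 13 to 26 for the muscle slope (23), 12 to 25 for the adipocyte slope (23), 0 to 0 for the hair slope (0), 11 to 26 for the macrophage slope (22) and 3 to 22 for the nerve slope (11).

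DESeq2 called 15, 4, 16 and 3 members for LPC at day 4, LPC at day 7, the days with LPC and the difference between days, where it called 1109, 1438, 3036 and 582 genes in all. The 8 libraries compared alone gave 17, 0 and 5 for the first 3 of these, among 1333, 45 and 1100 genes. The muscle score as a covariate gave 0, 2 (Kcnj16 and Kcnk7) and 4. At day 7 a filter of 1 CPM in at least 8 libraries and limma on log2(FPKM + 1) each gave 0, and the fit without LPC mice 2 and 4 gave 19. Without the LPC day 7 group the muscle, adipocyte, macrophage and nerve slopes gave 8, 2, 0 and 0. With the muscle score in the same fit the adipocyte, macrophage and nerve slopes gave 0, 0 and 6, and with the nerve score the muscle slope gave 13. Without a count filter the hair slope gave 1. Where no number of all genes called stands beside a count, nothing is read from its size. The same holds for every count for LPC at day 4, the contrast that chose the family. The causes of these moves were not tested.

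Mouse numbers did not pair the libraries. Deviations of same-numbered mice correlated at -0.60 to 0.54 over 24 pairs, and 2 of 16 libraries correlated best with their own number. With the replicate block the counts were 0 for LPC at day 4 and 0 at day 7, 6 between the days with LPC, 15 for the adipocyte, 11 for the macrophage and 2 for the nerve slope. Kcnj16 at day 7 had an adjusted p of 0.063 there (edgeR).

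Signs changed as follows, in log2 units. With the muscle covariate at day 4, Kcnn2 became 0.60, Kcna7 0.83, Kcnma1 0.86, Kcnq1 0.19, Kcnq5 0.53 and Kcnip3 0.22. The muscle scores of the groups did not overlap at that day. Between the days with LPC, Kcnk3 became -0.21 with that covariate, and without LPC day 7 mice 2 and 4 Kcna7 became -0.26, Kcnj11 -0.056, Kcnj12 -0.28, Kcnk3 -1.23, Kcnq5 -0.25 and Kcnt2 -0.033. In the difference between days with the covariate, Kcna7 became -0.23 and Kcnk3 -0.37. With the muscle score beside it, the adipocyte slope became -0.081 for Kcnj11, 0.029 for Kcnk7, 0.058 for Kcnmb4 and -0.010 for Kcnc4, and the macrophage slope -0.73 for Kcna7, -0.048 for Kcnc1, -0.076 for Kcnj11 and -0.023 for Kcnj12. The adipocyte slope of Kcnk2 ran from -0.0040 (without LPC day 7 replicate 4) to 0.29 (without vehicle day 4 replicate 3) with 1 library left out, and was -0.023 without the LPC day 7 group. Without that group the macrophage slope of Kcng3 became 0.085 and the nerve slope of Kcnk3 -0.47.

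A gene without counts could still be present at up to 0.145 to 0.181 CPM, and levels below that are poorly determined. The 25 members not tested carry no result. With 4 mice a group and a biological coefficient of variation of 35%, a difference that missed the threshold is not shown to be absent.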
